A study of Homo sapiens with 4 samples.

Results

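The VCX genes (variably charged X) are a small family of protein-coding genes on the short arm of the X chromosome. The family was defined by symbol as VCX, VCX2, VCX3A and VCX3B, and all 4 members were found, among 59533 genes analysed. They were taken up because VCX2 and VCX3A stood among the highest gains of the HCC1937 comparison in earlier results of these data, so that comparison is described here and not tested. RNA was sequenced from 4 libraries of 2 human cancer cell lines, with 1 library for each group. HCC1937 was derived from a breast tumour, THP-1 from a monocytic leukaemia. By the labels, cells of both lines are p53-/- and were infected to carry p53-R282W, which encodes a mutated tumour suppressor, so untreated and treated cells alike carry the mutant and no library without it was used. In each line an untreated library was set beside one from cells given decitabine (DAC), at 0.3 µM for 5 days in HCC1937 and at 5 µM for 2 days in THP-1. Dose and time therefore differ between the lines and cannot be told apart from the line. No group has a replicate, and every interval below covers counting error only.

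VCX genes are transcribed mainly in male germ cells and have close relatives on the Y chromosome, the VCY genes. Their proteins are small and highly charged, and they differ chiefly in how often a short acidic unit is repeated towards the end of the chain. The protein of VCX3A is known to bind the mRNA decapping enzyme DCP2. The members lie on both sides of STS, the steroid sulphatase gene, and recombination between repeats of this region is a known cause of the STS deletions behind X-linked ichthyosis. Germline genes of this kind are commonly held silent in somatic cells by DNA methylation. DAC is a deoxycytidine analogue that is built into replicating DNA, traps DNA methyltransferases there and so lowers methylation as cells divide. DNA methylation itself was not measured.

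The sequences decide how well the 4 genes can be told apart by short reads, and they are shown before the values for that reason. On hg38, with the GENCODE 29 annotation, the members span 1.93 Mb of chromosome X. VCX3A (ENSG00000169059.12) lies at 6533618 to 6535118 on the minus strand and VCX (ENSG00000182583.12) at 7842262 to 7844143 on the plus strand. VCX2 (ENSG00000177504.10) lies at 8169944 to 8171267 on the minus strand and VCX3B (ENSG00000205642.9) at 8464830 to 8466510 on the plus strand. None of the 4 overlaps another annotated gene in its exons. A noncoding gene on the other strand spans VCX2, with 0 exons over those of VCX2. In the longest GENCODE transcript of each gene, exon 2 holds the start codon and measures 248 bases in all 4. VCX2 and VCX3A were identical over it, and the other pairs differed at 2 to 4 bases. The coding sequence ahead of the repeats (308 bases) was identical in VCX and VCX2 and differed at 1 or 2 bases in every other pair.

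The members differed most in the repeat. The 10-base word found most often over the 4 coding sequences recurred every 30 bases, that is, every 10 codons. It occurred 2 times in VCX2, 8 times in VCX3A, 10 times in VCX and 14 times in VCX3B. The repeat array made up 14.4% of the coding sequence of VCX2, 43.0% in VCX3A, 48.5% in VCX and 56.9% in VCX3B. The arrays of VCX2 (chrX:8170083-8170142, minus strand) and of VCX3A (chrX:6533757-6533996, minus strand) are printed from the GENCODE 29 transcripts because they show the shortest array beside a longer, less uniform one. Capitals mark the recurring word.
VCX2: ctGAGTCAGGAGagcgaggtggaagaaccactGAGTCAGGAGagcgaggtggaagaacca
VCX3A: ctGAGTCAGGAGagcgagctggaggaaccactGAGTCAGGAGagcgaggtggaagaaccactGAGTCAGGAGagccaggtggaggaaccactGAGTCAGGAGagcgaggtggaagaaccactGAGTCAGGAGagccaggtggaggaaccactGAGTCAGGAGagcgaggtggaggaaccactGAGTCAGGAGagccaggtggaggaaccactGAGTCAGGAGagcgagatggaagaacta
In VCX2 both units were the same 30 bases. VCX3A held 5 different units, and VCX and VCX3B held 6 each. These are coding lengths of the reference genome, and repeat numbers in the cell lines were not measured.

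The RefSeq windows around the annotated start differed between VCX and the other members, but they cover different parts of the genes. RefSeq windows (GRCh38.p14) of 250 bases before to 50 bases after the start were matched for 4 of 4 genes. The start of VCX used there (7843171) lies inside the exon that carries the start codon, while its GENCODE transcript starts 796 bases ahead of that exon. Those of VCX2, VCX3A and VCX3B coincide with the start of an upstream, noncoding exon. The bases ahead of the starts are printed 5′ to 3′ with each CpG dinucleotide, the target of DNA methylation, in capitals. They cover chrX:8171268-8171517 (minus strand) for VCX2, chrX:6535119-6535368 (minus strand) for VCX3A and chrX:8464580-8464829 (plus strand) for VCX3B. For VCX the bases ahead of the exon with the start codon are given (chrX:7842921-7843057, plus strand).
VCX: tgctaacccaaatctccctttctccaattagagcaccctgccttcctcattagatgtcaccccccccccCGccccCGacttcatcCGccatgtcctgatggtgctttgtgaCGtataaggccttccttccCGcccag
VCX2: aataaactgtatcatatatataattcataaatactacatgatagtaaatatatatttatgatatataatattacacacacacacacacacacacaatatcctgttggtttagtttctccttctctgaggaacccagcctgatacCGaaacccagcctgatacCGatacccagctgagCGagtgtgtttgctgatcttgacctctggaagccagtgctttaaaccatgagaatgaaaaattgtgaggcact
VCX3A: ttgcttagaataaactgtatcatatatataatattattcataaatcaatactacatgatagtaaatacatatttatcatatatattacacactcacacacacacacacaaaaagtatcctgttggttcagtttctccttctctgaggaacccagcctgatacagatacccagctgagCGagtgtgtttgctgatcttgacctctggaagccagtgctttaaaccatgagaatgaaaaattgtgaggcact
VCX3B: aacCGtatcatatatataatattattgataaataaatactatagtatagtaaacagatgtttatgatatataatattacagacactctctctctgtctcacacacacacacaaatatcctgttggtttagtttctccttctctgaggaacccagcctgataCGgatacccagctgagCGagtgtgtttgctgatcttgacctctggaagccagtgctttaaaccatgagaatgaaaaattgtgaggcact
The VCX2, VCX3A and VCX3B windows matched each other at 82.4% to 86.0% of aligned positions and share a run of CA dinucleotides. The VCX window matched them at 44.4% to 45.6%, but it covers another part of the gene. The sequence ahead of the GENCODE start of VCX was not compared with the others. The 300-base window held 16 CpGs in VCX, 3 each in VCX2 and VCX3B and 1 in VCX3A. Over all 35116 RefSeq windows of that length, 54.0% held no more CpGs than VCX, 24.5% no more than VCX2 or VCX3B and 11% no more than VCX3A.

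The exon 2 stretch that carries most CpGs of the VCX window was not missing from the other genes but lay outside their windows. The last 163 bases of the VCX window are the start of its exon 2. The same 163 bases of exon 2 differed from them at 2 positions in VCX2 and VCX3A and at 3 in VCX3B, and held 10 CpGs in each, against 11 in VCX. In those 3 genes exon 2 begins 475 to 478 bases downstream of the annotated start. A 30-base part of it was the same in all 4 genes and is shown for its 4 CpGs, again in capitals.
Shared stretch: ggggCGtgattgtctCGtcctgggatCGCG
Motifs were searched on both strands: the TATA box (TATAAA), the CCAAT box (CCAAT), the GC box (GGGCGG), the ETS core (TTCCGG), the E-box (CACGTG), the MYB core (AACNGC), the cAMP response element (TGACGTCA) and the NRF1 motif. The VCX window held CCAAT 3 times and GGGCGG 2 times. The other 3 windows held none of these motifs, while exon 2 held CCAAT 2 times in all 4 genes. CCAAT was present in 34.6% and GGGCGG in 45.0% of all RefSeq windows, and the motifs not found in the family in 1.24% (NRF1) to 36.4% (AACNGC). These are matches of letters and do not show binding.

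How reads shared between the copies were counted is not given in the sources used here. To show what is at stake, every 50-, 100- and 150-base window of each longest transcript was looked up in all GENCODE 29 transcripts. Windows were shared with no gene outside the VCX and VCY genes. Of 100-base windows, 23.5% of VCX3A, 35.9% of VCX2, 48.6% of VCX and 54.1% of VCX3B were found in no other gene. VCX3A thus had the smallest part of its transcript to itself, and it did so at 50 bases (12.3%) and at 150 bases (27.2%) as well. Read length is not given, and sequence outside transcripts was not searched. Values of single members are uncertain to that extent, and their sum is given beside them.

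**Figure D1:**
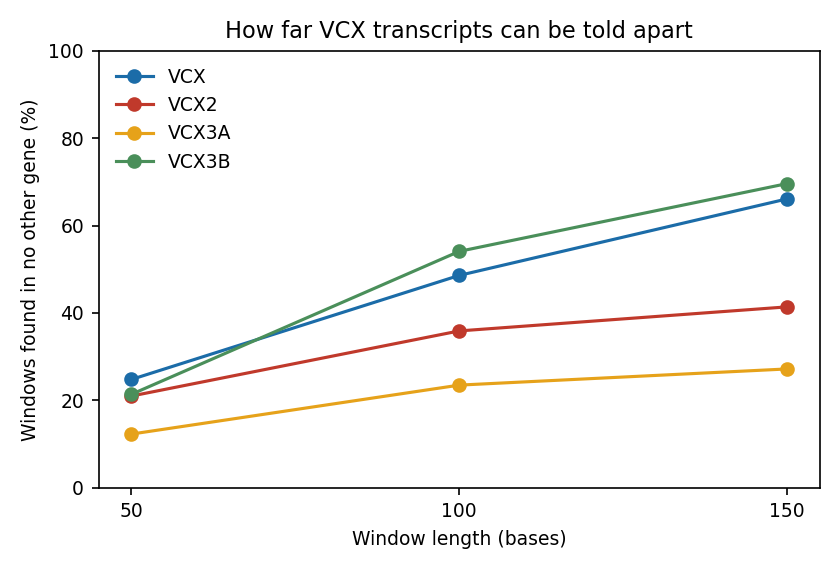
Percentage of windows of each longest VCX transcript that occur in no other gene's GENCODE 29 transcripts (vertical axis) at window lengths of 50, 100 and 150 bases (horizontal axis), with a line for each member. VCX3A is lowest at each length, from 12.3% to 27.2%, and VCX and VCX3B reach 66.1% and 69.6% at 150 bases.

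In HCC1937, all 4 VCX genes were at or near 0 untreated and present with DAC. In these bulk samples, fewer cells with VCX transcripts and less VCX RNA per cell cannot be told apart. Values are FPKM, read numbers scaled both to exon length and to library size, so levels of different genes are compared per length. VCX2, the copy with the shortest repeat, had no reads in the untreated library (listed at 0 FPKM) and reached 167.8 FPKM under DAC (95% Poisson interval 161 to 174, from about 2561 reads). VCX3A, whose protein binds DCP2, was listed at 0 and stood at 59.84 FPKM (56.4 to 63.5, about 1115 reads). VCX3B, the copy with the longest repeat, stood at 0.05 FPKM untreated, which is about 1 read, and at 34.67 FPKM with DAC (32.3 to 37.2, about 763 reads). VCX2, VCX3A and VCX3B were therefore at 34.67 FPKM or more in the DAC library. Untreated, they were absent or at the level of a single read. VCX was listed at 0 and stood at 6.88 FPKM (5.78 to 8.14, about 136 reads), which made it the lowest of the family in the library where the others were highest. For VCX3B the ratio was 693, with an exact (Clopper-Pearson) 95% interval of 136 to 30100. No fold is given for the members listed at 0. At this depth 3 reads correspond to 0.136 to 0.197 FPKM in the 4 genes. A level below that, as for VCX3B untreated, rests on fewer than 3 reads and cannot be told reliably from 0.

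**Figure D2:**
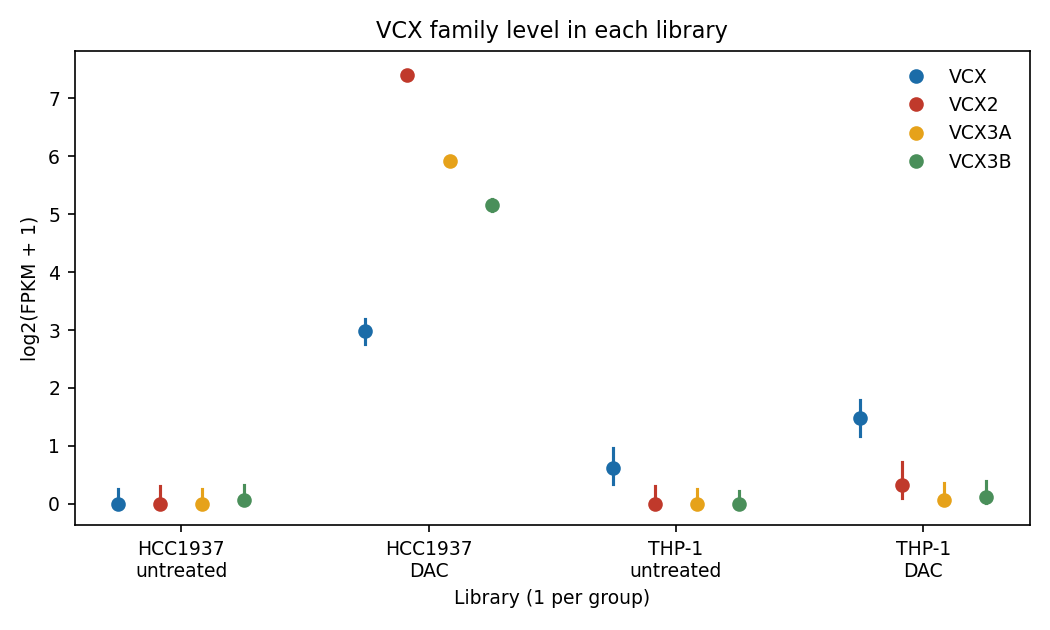
Level of each VCX member in each of the 4 libraries, as log2(FPKM + 1) on the vertical axis, with points for values and bars for 95% Poisson intervals of the estimated reads (counting error only). In HCC1937 the members go from 0 to 0.05 FPKM untreated to between 6.88 and 167.8 FPKM with DAC, while in THP-1 VCX2, VCX3A and VCX3B are at or below 0.25 FPKM in both libraries.

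On the log2(FPKM + 1) scale the differences between DAC and untreated were 7.40 for VCX2, 5.93 for VCX3A, 5.09 for VCX3B and 2.98 for VCX. Their size depends on the pseudocount, since the untreated values are at or near 0. With 0.1 they were 10.71, 9.23, 7.86 and 6.13 in turn, and with 10 they were 4.15, 2.80, 2.15 and 0.76. Genes were kept where either library of the line had at least 1 FPKM, and called at a 2-fold difference on that scale. By this rule 4 of 4 members were higher. The background is 10.3% of genes called higher (1452 of 14058 kept), and 1.44% called lower (202), but the family was chosen on this contrast and all 4 were kept through the DAC library alone, so nothing is read from the count. Called genes were higher in 87.8% of cases as deposited, 70.5% under median-of-ratios scaling and 68.6% under upper-quartile scaling. The medians over all kept genes were 0.19, -0.06 and -0.08 (log2) in turn. The members' differences are to be read against these shifts, which are small beside them. In size of difference VCX2 ranked 1 among the 14058 kept genes, VCX3A 5, VCX3B 13 and VCX 80. Of 380 kept genes listed at 0 untreated, VCX2 ranked 1, VCX3A 2 and VCX 29 by level. The median level of the 380 with DAC was 1.61 FPKM, and the filter had kept only those at 1 FPKM or more. By level VCX2 stood at rank 218 of all 59533 genes in the DAC library. As the family was taken up for its gains in this comparison, these ranks are a description and nothing is read from them.

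**Figure D3:**
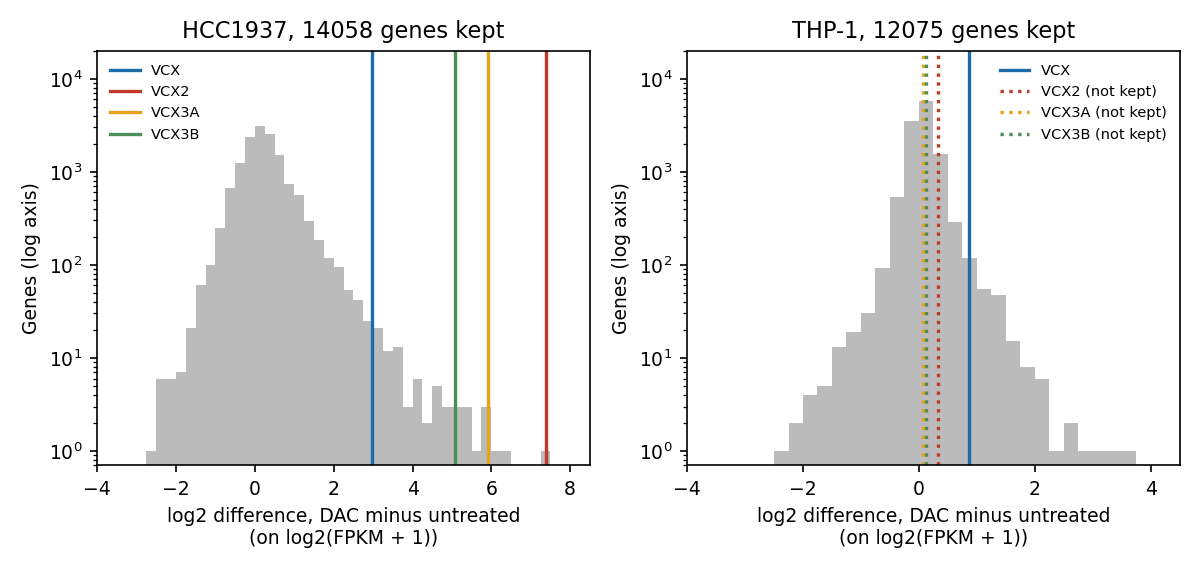
Number of kept genes (log axis) by log2 difference between DAC and untreated on log2(FPKM + 1), in HCC1937 (left, 14058 genes) and THP-1 (right, 12075 genes), with a vertical line for each VCX member, dotted where the member was not kept. The HCC1937 lines lie at 2.98 to 7.40 in the upper tail, and the THP-1 lines at 0.07 to 0.87.

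Within the family, the order of levels in the HCC1937 DAC library was VCX2, VCX3A, VCX3B and VCX. VCX2 was 2.80 times VCX3A (exact interval 2.61 to 3.01), VCX3A 1.73 times VCX3B (1.57 to 1.89) and VCX3B 5.04 times VCX (4.19 to 6.09). Each neighbouring pair in that order thus differed by more than counting error. VCX2 alone held 62.3% of the summed FPKM of the family, VCX3A 22.2%, VCX3B 12.9% and VCX 2.56%. If reads from shared sequence had not been counted, each level would have to be divided by the part of the transcript found in no other gene. Done with 50-, 100- and 150-base windows, a choice made after seeing the data, VCX2 was 1.64, 1.83 and 1.84 times VCX3A, and VCX3A was 3.01, 3.98 and 4.43 times VCX3B. The order was the same with each window length, while both ratios moved by over 1.5 times with each. The order did not follow the number of repeats, since VCX2 has 2, VCX3A 8, VCX3B 14 and VCX 10.

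In THP-1 the family was low in both libraries and VCX was its main member. VCX stood at 0.53 FPKM untreated (0.268 to 0.959, about 11 reads) and at 1.79 FPKM with DAC (1.26 to 2.46, about 37 reads). It was the single member detected in untreated THP-1 cells, and its ratio was 3.38 with an exact interval of 1.66 to 7.24, which lies above 1 but not wholly beyond 2-fold. VCX2 was listed at 0 and at 0.25 FPKM, about 4 reads. VCX3B was listed at 0 and at 0.09 FPKM, about 2 reads, and VCX3A at 0 and 0.05 FPKM, about 1 read. All 4 values were higher in the DAC library, but those of VCX2, VCX3A and VCX3B rest on few reads. At this depth 3 reads are 0.13 to 0.189 FPKM, so VCX3A and VCX3B lay below that and VCX2 just above. For each of them the Poisson interval with DAC overlapped that of untreated, for VCX2 at 0.068 to 0.639 and 0 to 0.233 FPKM. By the size rule VCX was the 1 member kept, and its log2 difference of 0.87 did not reach 2-fold. The other log2 differences were 0.32 for VCX2, 0.12 for VCX3B and 0.07 for VCX3A. So 0 of 4 members were called higher, against a background of 1.14% (138 of 12075 kept genes), with 0.364% called lower. With a pseudocount of 0.1 in place of 1 the VCX difference was 1.58 and passed. Its rank of 0.87 among the kept genes was 191 of 12075.

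The order of levels in the THP-1 DAC library was VCX, VCX2, VCX3B and VCX3A. VCX was 7.16 times VCX2, with an interval of 2.57 to 27.6. VCX2 over VCX3B (2.78, interval 0.413 to 31.9) and VCX3B over VCX3A (1.80, interval 0.0882 to 99.9) did not differ beyond counting error, and the latter order turned with 100- and 150-base windows, at 0.782 and 0.703. VCX therefore stood first in THP-1 and last in HCC1937. Of the estimated reads of the family, VCX held 84.1% in THP-1 with DAC (37 of 44, exact binomial interval 69.9% to 93.4%) and 2.97% in HCC1937 with DAC (136 of 4575, interval 2.50% to 3.51%). VCX2 held 9.09% (2.53% to 21.7%) and 56.0% (54.5% to 57.4%). The line, the dose and the time all differ between those libraries, and the difference in composition was not tested. The THP-1 values may also rest on another gene set, and how reads shared between copies were counted is not known for either line.

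**Figure D4:**
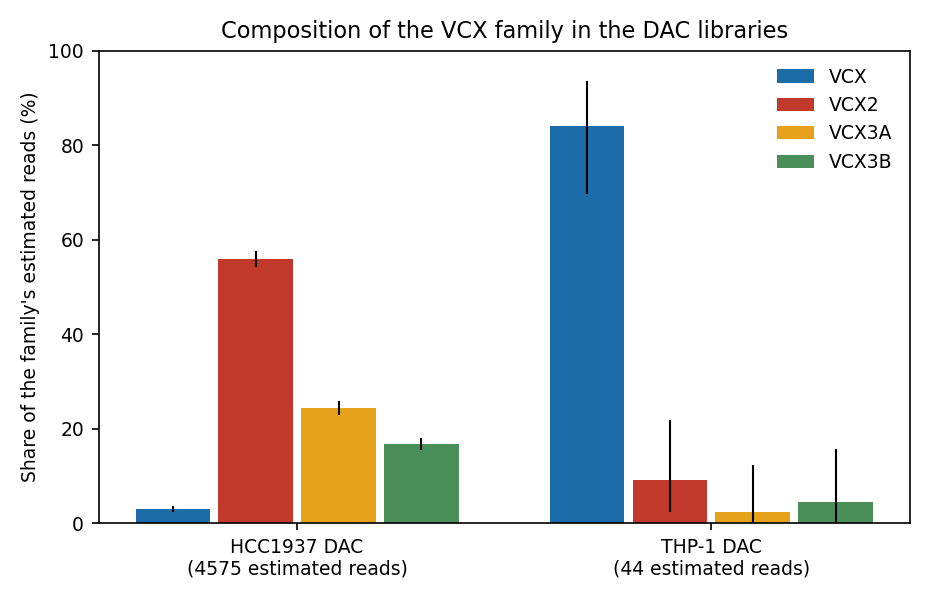
Share of the estimated VCX family reads held by each member (vertical axis, percent, from 0) in the DAC libraries of HCC1937 (4575 reads) and THP-1 (44 reads), with exact 95% binomial intervals as lines. VCX2 is the tallest bar in HCC1937 at 56.0%, and VCX in THP-1 at 84.1%.

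If each read was counted once, the summed reads of the 4 copies do not depend on how reads were split among those copies. The family stood at 0.05 FPKM in untreated HCC1937 and 269 FPKM with DAC. These are about 1 and 4575 reads, a ratio of 4580 after scaling to the reads counted, with an exact interval of 821 to 181000. In THP-1 the sum was 0.53 FPKM untreated and 2.18 FPKM with DAC, about 11 and 44 reads, and the ratio was 3.95 (2.01 to 8.5). Reads that fit several copies and were left out of the counting would be absent from the sums too. Reads counted for every copy they fit, or credited to the VCY genes, would alter the sums as well.

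Genes that lie among and around the VCX copies were not called in HCC1937. From 500 kb before VCX3A to 500 kb after VCX3B, 6 other protein-coding genes are annotated, and 4 of them were kept. None of the 4 was called in either direction, beside 11.8% of all kept genes, a share too small to set so few genes apart. PUDP, a pseudouridine phosphatase, stood at 5.83 FPKM untreated and 7.09 FPKM with DAC. STS stood at 11.73 and 9.66 FPKM. PNPLA4, a lipase of the patatin family that lies between VCX and VCX2, stood at 11.33 and 9.02 FPKM. ANOS1, the gene of Kallmann syndrome, stood at 0.80 and 1.06 FPKM next to VCX3B. STS and PNPLA4 were thus slightly lower, and PUDP and ANOS1 slightly higher, each by less than 2-fold. NLGN4X, a neuronal adhesion gene (0.02 and 0.22 FPKM), and FAM9A, a testis gene of the SYCP3-related FAM9 family (0 and 0.50 FPKM), stayed under the filter. The same span holds 15 genes that are not protein-coding, 12 of them with HCC1937 values, and 0 of these were kept in that line.

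**Figure D5:**
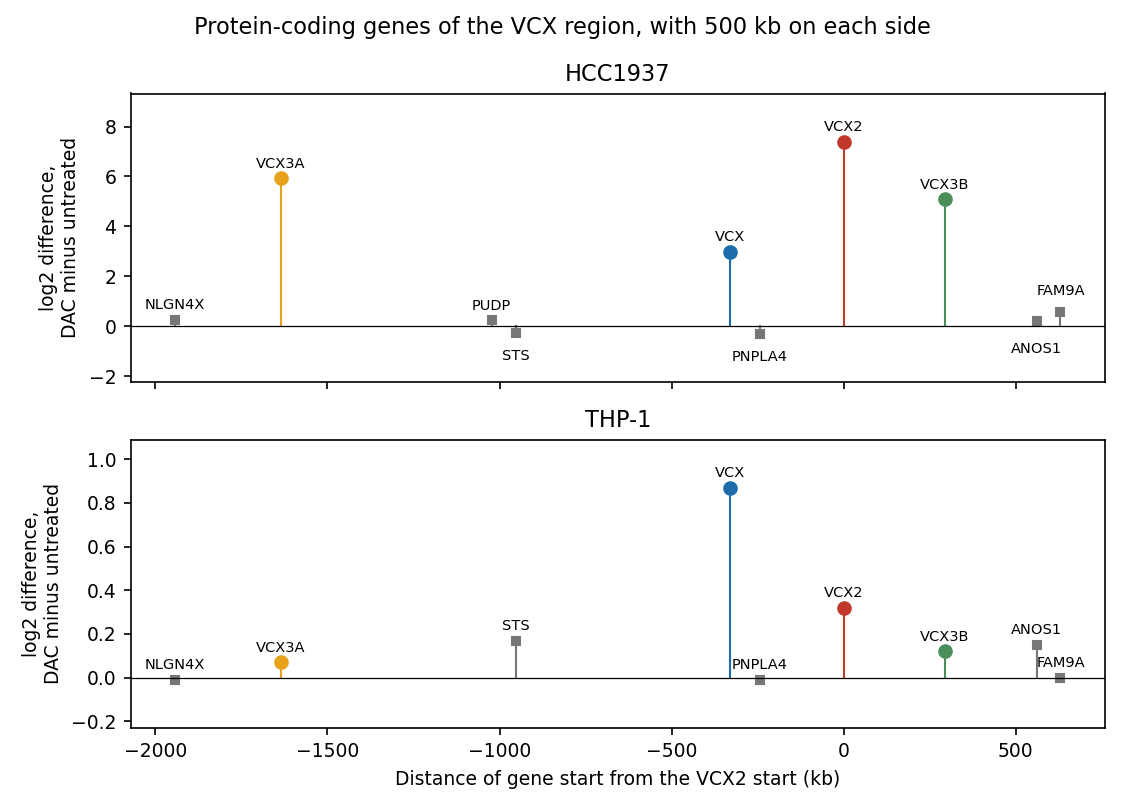
Log2 difference between DAC and untreated, on log2(FPKM + 1), of the protein-coding genes with values around the VCX family (vertical axis, on a different scale in each panel), by distance of the gene start from that of VCX2 in kb (horizontal axis). In HCC1937 the 4 VCX genes (circles) lie at 2.98 to 7.40 while the genes between and around them (squares) lie between -0.30 and 0.58, and in THP-1 VCX is highest at 0.87.

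Over a longer list of 18 genes of this end of the chromosome, 10 were kept in HCC1937, 1 was higher and 0 were lower. That is near the 10.3% of all kept genes called higher, and the median log2 difference was 0.20 beside 0.19 for all of them. The higher one was FAM9C, another testis gene of the FAM9 family, at 0.01 FPKM untreated and 5.67 with DAC. Its relatives FAM9A and FAM9B (0 and 0.05 FPKM) remained below 1 FPKM. In THP-1, 8 of 16 genes with values were kept and 0 were called, beside 1.51% of all kept genes, at a median of 0.07, which is also that of all kept genes. STS stood at 1.5 and 1.82 FPKM there, and PNPLA4 at 3.41 and 3.38.

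Other X-linked cancer-testis genes, which like VCX are expressed in testis and in some tumours, were also present with DAC in HCC1937. Of 32 listed, 0 reached 1 FPKM untreated and 18 did with DAC, and their summed level was 0.04 and 193.9 FPKM. All 18 were kept for their DAC value only and all 18 were called higher, beside 10.3% of all kept genes. The filter and the call are not independent here, so nothing is read from the count. CT45A1 (0 and 49.65 FPKM), TKTL1, a transketolase-like gene (0 and 37.27 FPKM), MAGEA4 (0 and 32.98 FPKM) and CTAG2 (0 and 19.25 FPKM) had the largest differences. The summed 32 genes stood below the 269 FPKM of the 4 VCX copies, both sums being of values per length. The family was taken up for its gains in this comparison and the list is not complete, so nothing is read from that. In THP-1, 4 of 32 were kept and 1 was higher, MAGEA4 (0.27 and 16.06 FPKM), beside 1.14% of all kept genes. It was kept for its DAC value only, so nothing is read from that count either. TKTL1 (31.34 and 30.66 FPKM) and MAGEB2 (43.4 and 44.13 FPKM) were expressed in THP-1 without DAC, unlike VCX2, VCX3A and VCX3B.

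Germ cell genes were examined as the group from which VCX transcripts normally come. In HCC1937, 0 of 21 reached 1 FPKM untreated and 8 did with DAC, with sums of 0.38 and 132.6 FPKM. All 8 were kept for their DAC value only and all 8 were called higher, beside 10.3% of all kept genes. The filter and the call are thus not independent, and nothing is read from the count. The highest were DAZL, an RNA-binding protein of germ cells (0.06 and 65.72 FPKM), GCNA, a germ cell nuclear protein (0.09 and 41.06 FPKM), MAEL, of the piRNA pathway (0 and 6.55 FPKM), and SYCP3, of the synaptonemal complex (0 and 6.05 FPKM). The spermatid genes PRM1, PRM2 and TNP1 and the meiotic gene SYCP1 were among the 7 listed at 0 in both HCC1937 libraries. In THP-1, 0 of 20 reached 1 FPKM untreated and 1 did with DAC. The libraries carried the markers of their lines, since 14 of 14 epithelial genes reached 1 FPKM in both HCC1937 libraries and 14 of 14 myeloid genes in both THP-1 libraries. Among the epithelial genes, 2 of 14 kept were called higher with DAC in HCC1937, near the 10.3% of all kept genes. These were KRT19 (3.87 and 294.17 FPKM) and KRT14 (14.86 and 111.77 FPKM), and the sum of the list was 2336 and 2585 FPKM. In THP-1, KRT17 (0.52 and 2.75 FPKM), kept for its DAC value only, was the 1 gene called higher among 4 kept. The share over all kept genes there was 1.14%. Of 14 epithelial genes, 2 reached 1 FPKM untreated in THP-1 and 4 with DAC. Myeloid genes moved with DAC in HCC1937 as well, from 1 to 4 of 14 at 1 FPKM and from a sum of 2.22 to 22.18 FPKM. LAPTM5 and TYROBP led, while LYZ was at 0 in both. Of 4 myeloid genes kept, 3 were called higher, beside 10.3% of all kept genes. Of the same 4, 3 were kept for their DAC value only, so nothing is read from that count. The part of these marker genes in the VCX result was not tested.

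Outside the family, whose members were left out of the search, the protein-coding genes whose 4 values lay nearest to those of each member were mostly of other chromosomes. The share of X-linked genes among those searched was not counted, so nothing is read from that. By Euclidean distance on log2(FPKM + 1) over the 4 libraries, DAZL of chromosome 3 and CT45A1 were nearest to VCX3A (0.19 and 0.45) and to VCX2 (1.35 and 1.74). TUBA3E, an alpha-tubulin (0 and 33.7 FPKM in HCC1937), and SPDYC, a cell cycle regulator (0.11 and 33.03 FPKM), were nearest to VCX3B, both at 0.11. COX7A1, a respiratory chain subunit, was nearest to VCX (0.59), at 0 and 7.02 FPKM in HCC1937 and 0.94 and 1.00 in THP-1. The third in each case was NNAT for VCX2 (2.14), TUBA3E for VCX3A (0.82), HLA-G for VCX3B (0.39), and MAEL and COX8C followed COX7A1 for VCX (0.71 and 0.72). The nearest of these genes to VCX2 was farther away than the third of any other member. VCX2 was taken up for its gain, the largest of all kept genes in HCC1937, so its distances are a description only. Genes without THP-1 values, GCNA among them, could not enter the search.

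The enzymes that DAC acts on were expressed in both lines. In HCC1937, DNMT1, which copies methylation at replication, stood at 23.65 FPKM untreated and 33.14 with DAC, DNMT3A at 1.64 and 2.47, and DNMT3B, a de novo methyltransferase, at 5.23 and 14.36. DNMT3B was the 1 gene called higher among 12 kept of a list of 15 methylation genes, near the 10.3% of all kept genes, with 0 lower and a median of 0.28 beside 0.19 for all kept genes. In THP-1 the values were 105.97 and 109.6 FPKM for DNMT1, 11.12 and 11.83 for DNMT3A and 5.95 and 5.88 for DNMT3B. There 13 of 15 were kept and 0 were called, beside 1.51% of all kept genes, a share too small to set so few genes apart. The mRNA decapping genes, listed for the link of VCX3A to DCP2, had 0 of 11 called in either line, beside 11.8% of all kept genes in HCC1937 and 1.51% in THP-1. Their medians were 0.16 in HCC1937 and 0.12 in THP-1. DCP2 itself stood at 1.52 and 2.51 FPKM in HCC1937.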

How the data were processed

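The submitters' processing notes list cutadapt, FastQC, HTSeq and STAR and the build hg38. Versions, annotation and strand use are not given in the sources used here. No unit is named for the deposited values. They were read as FPKM computed by the authors: among genes of 50 to 250 exon bases, the value multiplied by the GENCODE 29 exon length was a whole number of steps (tolerance 0.1) for 92.0% to 94.4%. From the step, depth was 18.7 M counted reads for untreated and for DAC HCC1937, 19.5 M for untreated THP-1 and 19.7 M for DAC THP-1. Reads per gene are estimates from it. Of 60612 table lines, 37039 hold no THP-1 value, and 1079 lines of 76 repeated symbols were left out, which leaves 23440 genes with THP-1 values. The THP-1 columns may rest on another gene set, so levels are not compared between lines. Only orders and shares within a library are set side by side, with the same limit.

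Libraries were compared within a line, as deposited, by a rule of size and with no test. Members and lists were chosen with earlier results of these data known. Genes named beside the members were the called genes of the neighbour and methylation lists, DNMT1, DNMT3A, DNMT3B, up to 4 called genes of each other list and the 3 protein-coding genes nearest to each member. Other genes of the region and of the marker and germ cell lists, and MAGEB2 and TKTL1 in THP-1, were named after their values were seen. The VCY genes are not reported. Sequences are from GENCODE 29 and RefSeq. Promoter windows were aligned globally (match 1, mismatch -1, gap opening -3, extension -0.5). Alternatives were 2 scalings, other filters, pseudocounts of 0.1 and 10 and a 4-fold rule. Scaling, calls, the read step and the ratio interval were tested on simulated data, and the sequence steps were not. The genes simulated for the calls were at 2 FPKM or more untreated and were called after median-of-ratios scaling. Genes absent untreated were therefore not covered. Software: Biopython 1.88, matplotlib 3.10.9, scipy 1.17.1, numpy 2.4.6, pandas 2.3.3, Python 3.11.15.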

Additional observations from a re-analysis of the deposited data

How the results depend on the processing

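All 4 members were higher in HCC1937 under each scaling, filter, pseudocount and fold tried except a pseudocount of 10, where VCX fell under 2-fold (0.76), since a larger pseudocount shrinks the difference of a low gene. Of the same settings, a pseudocount of 0.1 alone called a member in THP-1, 1 of 4, VCX (1.58), beside 297 of 12075 kept genes called higher. VCX2 differed by 1.81 with that pseudocount but was not kept, and filter and pseudocount were not changed together. Median-of-ratios and upper-quartile scaling lowered the HCC1937 DAC levels to 152 and 151 FPKM for VCX2, 54.2 and 53.7 for VCX3A, 31.4 and 31.1 for VCX3B and 244 and 242 for the sum, and raised the genes called lower to 457 and 487. In HCC1937 the genes called higher and lower were 550 and 108 at 5 FPKM, 2323 and 383 with a pseudocount of 0.1, 131 and 31 with 10, and 294 and 13 at 4-fold. In THP-1 they were 42 and 4, 297 and 74, 3 and 0, and 13 and 3 in turn. Dividing by unshared sequence turned VCX3B over VCX3A in THP-1 (0.782 and 0.703 with 100- and 150-base windows), on 2 reads and 1 read. No paired analysis was possible because each group has 1 library, and for the same reason no library could be left out. Depth limits the THP-1 values of VCX2, VCX3A and VCX3B.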
